A study of Mus musculus with 6 samples.

Results

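Deep-layer cortical neuron genes are described here across the control and Mef2c cKO cortex. They are 10 genes of layer 5 and layer 6 projection neurons, taken by symbol from the 21667 named genes in the expression tables. Bcl11b, Fezf2, Crym, Ldb2 and Etv1 were grouped as layer 5 genes, and Foxp2, Tbr1, Tle4, Ntsr1 and Sox5 as genes of layer 6 or shared by the deep layers. RNA came from the somatosensory cortex of 6 adult male mice on a mixed SVeV-129 and C57BL/6J background. All 6 carried floxed Mef2c alleles (Mef2c fl/fl), and the 3 Mef2c cKO mice also carried 1 Emx1-Cre knock-in allele, which the 3 Cre-negative littermate controls lacked. Replicate 1 of each genotype was 14 weeks old, and replicates 2 and 3 were 12 weeks old. Emx1-Cre acts from an embryonic stage in most excitatory neurons of the neocortex and hippocampus and in some forebrain glia, so the mice are no model of loss in the deep layers alone or in adult neurons alone.

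Projection neurons of the neocortex are born in sequence, and the deep layers are filled first. Layer 5 holds the subcerebral neurons that send axons to the brainstem and spinal cord, beside neurons that project within the forebrain, and layer 6 holds the corticothalamic neurons. A small set of transcription factors that repress one another sets these fates in the embryo, with Fezf2 and Bcl11b (Ctip2) on the subcerebral side and Tbr1 on the corticothalamic side, and most stay expressed in the adult.

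Of the 10 genes, Ldb2, Tbr1 and Ntsr1 rose in Mef2c cKO cortex, and Fezf2 and Etv1 fell. Bcl11b, Foxp2, Tle4, Crym and Sox5 did not pass the test. A gene was called when its adjusted p in limma, a linear model fitted across all genes, was under 0.05 and its absolute log2 fold change was above 0.3. The 5 of 10 genes called stood beside 13.6% of the 14618 genes tested, of which 5.88% rose and 7.77% fell. The 10 genes were chosen with earlier results of these data known, so these shares are no test of enrichment. All 10 passed the filter on low values. Their median log2 fold change was 0.15 and that of all genes tested was 0.01. In 6 of the 10 genes the values of the 3 cKO mice lay apart from those of the 3 controls, which was so for 33.8% of all genes tested.

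**Figure D1:**
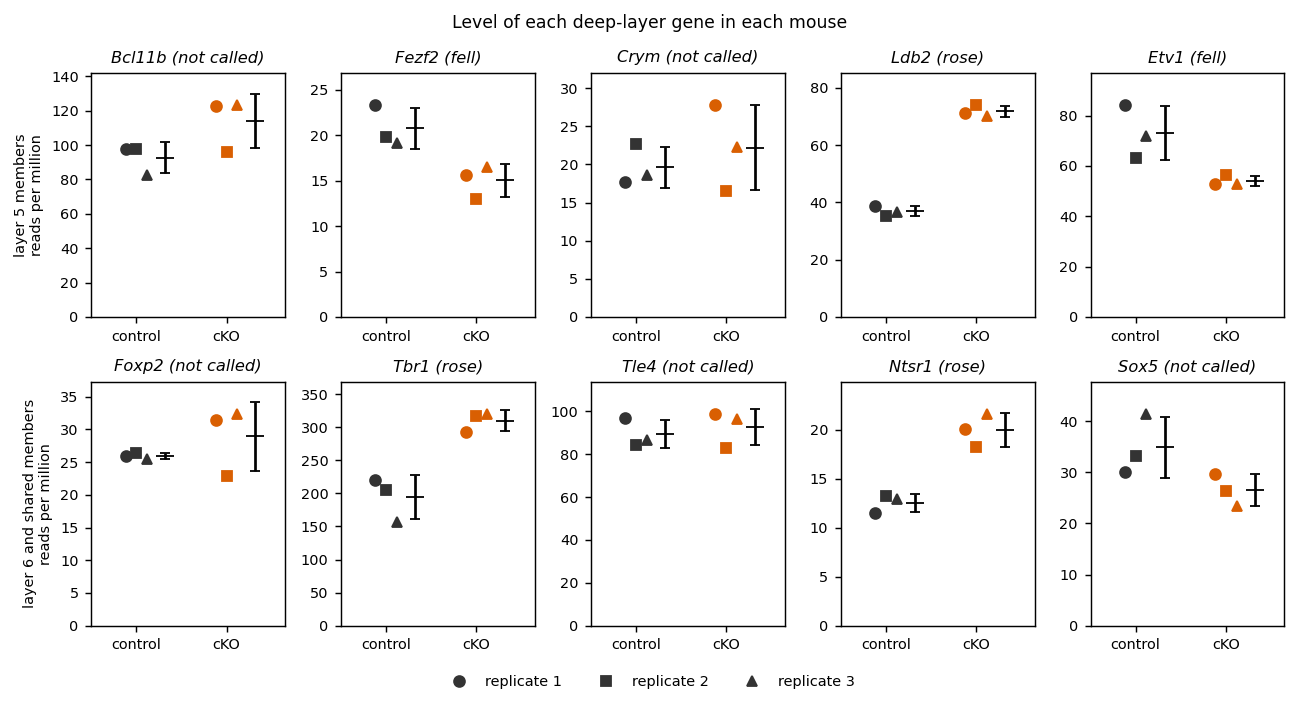
Level of each of the 10 genes in each mouse, in CPM, reads scaled to the library total (each vertical axis starts at 0); marker shapes are replicates 1 to 3, grey for control and orange for cKO, and the bar at the side of each group is the mean with its SD (n = 3). The cKO mice stand above the controls in Ldb2, Tbr1 and Ntsr1 and below them in Fezf2, Etv1 and Sox5. Replicate 2 of the cKO is the lowest cKO mouse in Bcl11b, Crym, Foxp2, Tle4, Fezf2 and Ntsr1.

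The libraries held between 19326365 and 54128334 reads, with cKO replicate 2 the smallest. The counts of the 10 genes ran from 251 (Fezf2 in that mouse) to 17346 (Tbr1 in cKO replicate 3). Mef2c itself was at 772 to 800 CPM (recovered reads scaled to the library total) in the controls and at 1231 to 1468 in the cKO mice, a log2 fold change of 0.74 (adjusted p = 0.000177 in limma). This gene-level value takes reads from every exon, the floxed part and the rest together, so it does not check the deletion, and the genotypes below are those of the labels. Emx1, the gene that carries the Cre insertion, was at 16.5 to 20.3 CPM in the controls and 4.97 to 5.71 in the cKO mice. The tissue was rich in excitatory neuron transcripts, with Slc17a7, the vesicular glutamate transporter of cortical neurons, at 1137 to 1289 CPM in the 6 mice. Its log2 fold change was 0.06 (limma, adjusted p = 0.591). In a bulk sample, fewer cells of a type and less RNA per cell cannot be told apart.

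In the controls, levels per kilobase of exon put Tbr1 first at 35.4 ± 6.00 CPM per kilobase (SD, n = 3), and Tle4 next at 19.3 ± 1.45. Ldb2 at 14.0 ± 0.68, Etv1 at 12.4 ± 1.80 and Bcl11b at 11.4 ± 1.09 formed a middle group. Etv1 overlapped with both of its neighbours in this order. Below them came Fezf2 at 9.02 ± 0.98, Crym at 5.79 ± 0.79, Ntsr1 at 3.201 ± 0.23, Sox5 at 2.43 ± 0.41 and Foxp2 at 1.92 ± 0.03. Exon lengths were those of the mm9 gene models, and a shorter transcript in use would raise a gene in this order. In the cKO mice Tbr1 was again first, at 56.6 ± 2.79. Ldb2, at 27.4 ± 0.73, then stood above Tle4, at 20.03 ± 1.84, with no overlap between the 2 genes.

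Ldb2, a LIM-domain-binding adaptor of transcription complexes that is enriched in layer 5, showed the largest change among the 10. Its gene lies at chr5:44863372-45190946 on the minus strand (mm9, as are the other gene positions). The control mice had 38.7, 35.2 and 36.8 CPM, and the cKO mice 71.4, 74.0 and 70.3. Every cKO mouse was far above every control, and the spread within each genotype was narrow. The mean was 1.95 times that of the controls, a log2 fold change of 0.96 ± 0.06 (SE; adjusted p = 1.48e-05 in limma). Ldb1, its close relative, was at 101 to 115 CPM in the controls and 119 to 130 in the cKO mice, and its log2 fold change of 0.17 ± 0.07 did not pass (limma, adjusted p = 0.137).

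Fezf2, the zinc-finger factor that specifies subcerebral neurons, fell. The gene is at chr14:13174406-13178379 on the minus strand. Levels were 23.3, 19.8 and 19.2 CPM in the controls and 15.6, 13.0 and 16.5 in the cKO mice. No cKO mouse reached the lowest control. The mean fell by 27.5%, with a log2 fold change of -0.46 ± 0.12 (SE; adjusted p = 0.0250 in limma). The direction held in all 16 alternative fits of the recovered counts, and the call was lost in 5 of them, with adjusted p = 0.0692 in limma without cKO replicate 2, 0.0861 without control replicate 1 and 0.0536 without control replicate 2. Within the 12-week mice alone it was 0.121, at a log2 fold change of -0.41.

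Etv1 (Er81), an ETS-family factor of layer 5 projection neurons, also fell. It lies at chr12:39505967-39594802 on the plus strand. The controls had 84.2, 63.1 and 71.7 CPM and the cKO mice 52.9, 56.4 and 52.7. The cKO mice lay close together below a wider range of controls. The log2 fold change was -0.43 ± 0.10 (SE; limma, adjusted p = 0.0170). This call was lost in 4 of the 16 alternatives, and leaving out cKO replicate 1 or 3 gave an adjusted p in limma of 0.0532 or 0.0503. Among the 12-week mice the log2 fold change was -0.30 (limma, adjusted p = 0.0867). Its relatives in the same ETS subfamily were not called. Etv5, with 126 to 167 CPM in the controls and 153 to 184 in the cKO mice, had a log2 fold change of 0.30 ± 0.11.

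Bcl11b (Ctip2), the zinc-finger factor needed for the axons of subcerebral neurons, lies at chr12:109148613-109241812 on the minus strand. Its values were 97.9, 97.9 and 82.6 CPM in the controls and 123, 95.9 and 123 in the cKO mice. cKO replicates 1 and 3 stood above the controls, and replicate 2 lay among them. Over all 6 mice the log2 fold change was 0.29 ± 0.11 (SE; limma, adjusted p = 0.106), and without cKO replicate 2 it was 0.41 (limma, adjusted p = 0.0167), past both thresholds. Bcl11a (Ctip1), its paralogue, rose, from 110 to 118 CPM in the controls to 140 to 147 in the cKO mice, and its log2 fold change was 0.31 (adjusted p = 0.00492 in limma).

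Crym, which encodes a thyroid-hormone-binding crystallin found in subcerebral neurons, lies at chr7:127329894-127345625 on the minus strand. It was at 17.6, 22.7 and 18.6 CPM in the controls and at 27.8, 16.6 and 22.3 in the cKO mice. The cKO mice spread on either side of the controls. Its log2 fold change of 0.15 had a 95% interval from -0.24 to 0.55 (limma, adjusted p = 0.618), the widest of the 10. It changed sign, to -0.02, without cKO replicate 1, and was -0.09 among the 12-week mice.

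Tbr1, the T-box factor of layer 6 corticothalamic neurons and the subplate, rose. Its gene lies at chr2:61640987-61652171 on the plus strand. Levels were 220, 206 and 157 CPM in the controls and 293, 318 and 320 in the cKO mice. The lowest cKO mouse was well above the highest control. The mean was 1.60 times that of the controls, a log2 fold change of 0.69 ± 0.11 (SE; adjusted p = 0.00277 in limma), and the call held in all 16 alternatives. Tbr1 is also expressed in some upper-layer neurons, so its bulk level cannot be assigned to layer 6 alone. Eomes (Tbr2), its T-box relative of cortical progenitors, was at 0.74 to 1.59 CPM in the 6 mice and was not called.

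Ntsr1, a neurotensin receptor that marks corticothalamic neurons in the adult, rose by a like amount. It lies at chr2:180234681-180279685 on the plus strand. The controls had 11.5, 13.2 and 12.9 CPM and the cKO mice 20.1, 18.2 and 21.6. Again the genotypes did not overlap. The log2 fold change was 0.67 ± 0.10 (SE; limma, adjusted p = 0.00155). The ligand gene Nts rose too, from 0.52 to 0.56 CPM in the controls to 1.50 to 2.60 in the cKO mice, a log2 fold change of 1.73 (adjusted p = 0.000791 in limma). Ntsr2, a neurotensin receptor that in cortex is found mainly in astrocytes, went from 70.7 to 78.7 up to 117 to 125 CPM, a log2 fold change of 0.68 (adjusted p = 0.00010 in limma). Sort1, the sorting receptor that also binds neurotensin, had a log2 fold change of 0.00 ± 0.06 at 753 to 809 CPM.

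Foxp2, a forkhead repressor of layer 6 neurons, lies at chr6:14851349-15391977 on the plus strand. It was at 25.9, 26.3 and 25.4 CPM in the controls and at 31.5, 22.9 and 32.4 in the cKO mice. The controls were nearly level, and the cKO mice lay above them in replicates 1 and 3 and below them in replicate 2. With all mice the log2 fold change was 0.14 ± 0.12 (SE; limma, adjusted p = 0.503), and without cKO replicate 2 it was 0.30 (limma, adjusted p = 0.0373), just past both thresholds. Its relatives differed from it in their calls. Foxp1, a forkhead factor of layers 3 to 5, fell, from 236 to 253 CPM in the controls to 148 to 153 in the cKO mice, and its log2 fold change was -0.71 (adjusted p = 2.8e-05 in limma). Foxp4 rose by 0.32 on the log2 scale (limma, adjusted p = 0.0171).

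Tle4, a Groucho-family corepressor of corticothalamic neurons, lies at chr19:14522562-14672473 on the minus strand. The controls had 97.0, 84.5 and 86.6 CPM and the cKO mice 98.9, 83.0 and 96.3, and the genotypes overlapped through most of their range. The log2 fold change of 0.05 had a 95% interval from -0.14 to 0.24 (limma, adjusted p = 0.736). Among the other Groucho genes, Tle1 rose by 0.49 on the log2 scale (limma, adjusted p = 0.000819), from 33.8 to 37.2 CPM in the controls to 48.9 to 51.0 in the cKO mice. Tle2 and Tle3 did not pass, with log2 fold changes of 0.23 and -0.003.

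Sox5, an SRY-box factor that controls the timing of deep-layer neuron production and keeps subplate and layer 6 identity, lies at chr6:143776945-144730497 on the minus strand. It was at 30.05, 33.1 and 41.5 CPM in the controls and at 29.7, 26.4 and 23.5 in the cKO mice. The highest cKO mouse lay just under the lowest control. The log2 fold change of -0.39 ± 0.13 (SE) did not pass (limma, adjusted p = 0.0733), and the call was gained without control replicate 1, at -0.49 (limma, adjusted p = 0.0443), and in the 12-week mice alone, at -0.57 (limma, adjusted p = 0.035). An antisense gene, 4933415D12Rik, shares exon sequence with Sox5, and since the strand setting of the counting is not given, reads of the pair may not be separated. Sox11, an SRY-box factor of immature neurons, rose by 0.66 on the log2 scale (limma, adjusted p = 0.00686), while Sox6 and Sox4 had log2 fold changes of -0.16 and -0.09 and were not called.

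**Figure D2:**
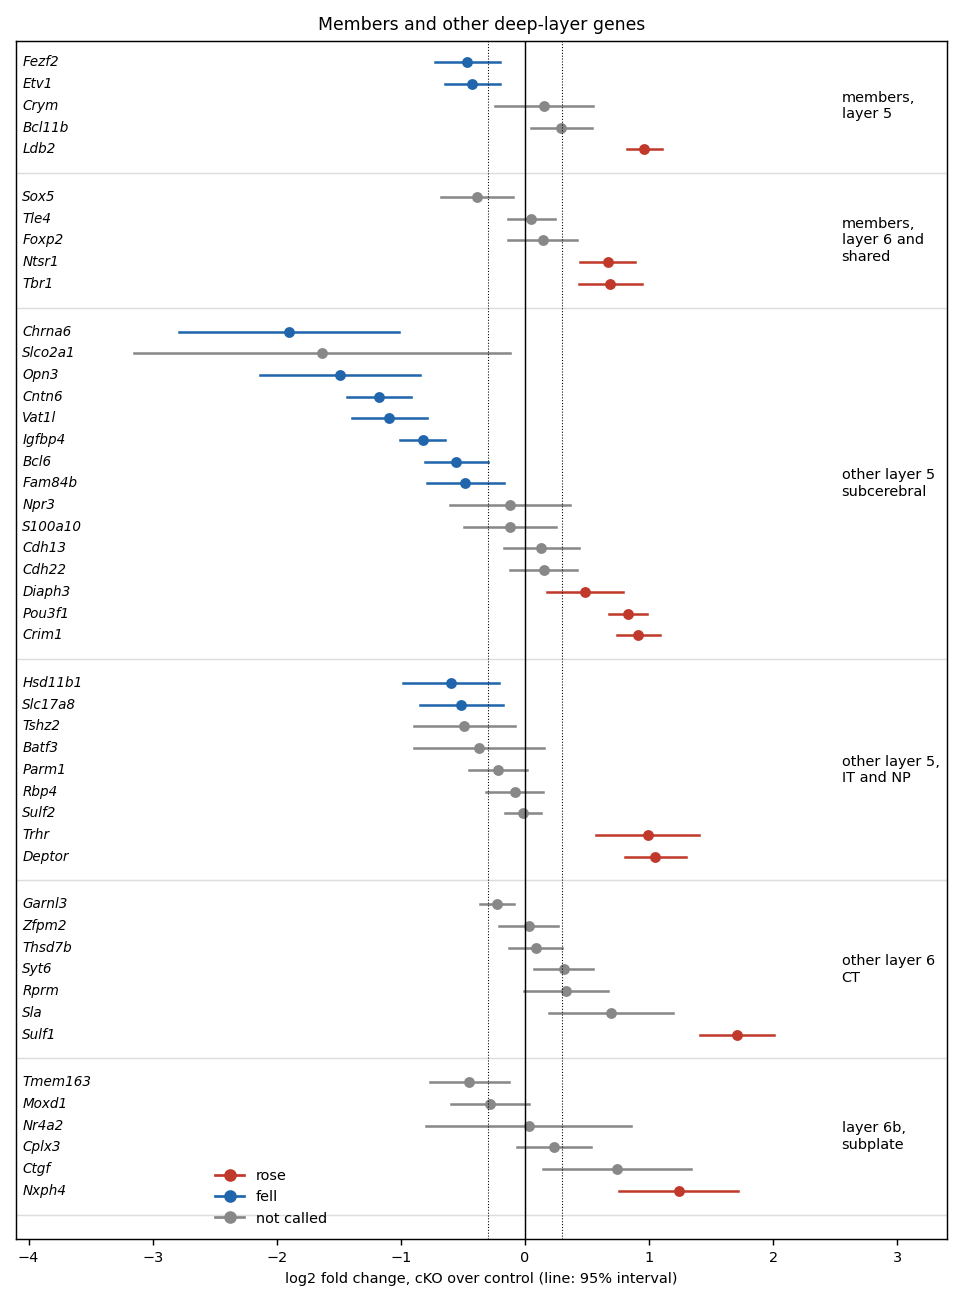
Log2 fold change of cKO over control (dots) with its 95% interval (lines) for the 10 genes and the 37 other deep-layer genes tested, in blocks by layer (IT, intratelencephalic; NP, near-projecting; CT, corticothalamic); red genes rose, blue genes fell, grey genes were not called, and dotted lines mark 0.3 either way. In layer 5 there are 6 red and 11 blue genes, and in layers 6 and 6b 4 red and no blue.

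Windows before the transcription start are shown for Tbr1 and Ntsr1, which rose, and for Fezf2 and Etv1, which fell, to set the starts of genes that moved in opposite directions side by side. RefSeq promoter windows (build GRCm38.p6, not the mm9 of the expression tables) were matched by symbol for 7 of the 10 genes, in 9 windows, and Foxp2, Crym and Ldb2 had none. Each line gives the 250 bases before the start, 5′ to 3′ on the strand of the gene, with CG pairs in capitals. Etv1 had a second window, which is not printed.
Tbr1, chr2:61804203-61804452, strand plus: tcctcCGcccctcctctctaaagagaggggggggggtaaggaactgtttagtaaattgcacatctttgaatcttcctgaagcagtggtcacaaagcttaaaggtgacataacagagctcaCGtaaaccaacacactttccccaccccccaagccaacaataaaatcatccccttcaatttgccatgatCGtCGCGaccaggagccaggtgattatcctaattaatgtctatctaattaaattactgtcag
Ntsr1, chr2:180499726-180499975, strand plus: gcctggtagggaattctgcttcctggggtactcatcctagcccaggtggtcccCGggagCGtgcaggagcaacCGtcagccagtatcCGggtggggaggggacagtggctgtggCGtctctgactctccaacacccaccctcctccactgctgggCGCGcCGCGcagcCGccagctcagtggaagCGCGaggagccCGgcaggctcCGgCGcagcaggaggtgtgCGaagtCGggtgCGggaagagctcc
Fezf2, chr14:12345866-12346115, strand minus: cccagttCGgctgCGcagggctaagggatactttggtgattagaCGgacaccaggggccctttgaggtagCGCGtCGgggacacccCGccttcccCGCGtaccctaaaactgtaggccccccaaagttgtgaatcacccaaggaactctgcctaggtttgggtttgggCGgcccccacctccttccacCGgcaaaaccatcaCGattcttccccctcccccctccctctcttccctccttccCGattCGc
Etv1, chr12:38779832-38780081, strand plus: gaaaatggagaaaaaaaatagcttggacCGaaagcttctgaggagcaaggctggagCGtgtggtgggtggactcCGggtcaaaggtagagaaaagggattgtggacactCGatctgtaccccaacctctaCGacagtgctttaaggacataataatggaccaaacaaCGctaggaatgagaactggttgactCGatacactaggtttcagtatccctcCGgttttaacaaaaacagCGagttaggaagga
The Tbr1 stretch holds 5 CG pairs and 45.2% G and C, the Ntsr1 stretch 18 and 68.4%, the Fezf2 stretch 14 and 61.2%, and the Etv1 stretch 9 and 46.4%. The medians over all 32851 windows were 6 pairs and 52.4%. Neither the genes that rose nor those that fell were alike in these measures. The MEF2 consensus, an AT-rich motif of 10 letters, was searched on both strands of the 300-base windows. It was in 3.19% of all windows and in 0 of the 9 windows of these genes, which says only that the letters are not in these windows.

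The wider set of deep-layer genes held 39 further genes in 4 lists, of which 37 were tested. Of these, 7 rose and 9 fell, 43.2% against 13.6% of all genes tested, with a median log2 fold change of -0.08. The lists too were chosen with earlier results known, so these shares are given without a test. By layer, with the 10 genes included, 6 of 29 layer 5 genes rose and 11 fell, and the median log2 fold change was -0.22. Of 18 genes of layers 6 and 6b or shared by the deep layers, 4 rose and 0 fell, with a median of 0.19. Among those 18, some not called had no overlap between genotypes. Every cKO mouse was below every control in Sox5, Tmem163 and Garnl3, and above in Syt6. The difference between the layers was not tested.

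Among the 4 lists of further deep-layer genes, the subcerebral genes of layer 5 held the most that fell. Of 15 tested, 7 fell and 3 rose, and the median log2 fold change was -0.48. Igfbp4, a binding protein of insulin-like growth factors, was at 105, 105 and 94.3 CPM in the controls and at 63.5, 53.2 and 55.1 in the cKO mice, a log2 fold change of -0.83 (adjusted p = 0.000142 in limma). Vat1l, a marker of large subcerebral neurons, had 40.7, 45.2 and 41.7 against 20.9, 15.8 and 23.7, and fell by 1.09 on the log2 scale (limma, adjusted p = 0.000532). Every cKO mouse was below every control in both genes.

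Cntn6, a contactin of the cell surface found in layer 5, fell by 1.18 on the log2 scale. The low-level genes Opn3, an opsin, and Chrna6, a nicotinic receptor subunit of a few layer 5 neurons, fell, with log2 fold changes of -1.49 and -1.90. Chrna6 went from 0.87 to 1.71 CPM in the controls to 0.09 to 0.41 in the cKO mice. It is counted among the genes that fell, but passed the filter on low values only through the controls. Bcl6, a repressor, and Fam84b also fell, at -0.55 and -0.48. In the opposite direction, Crim1, a membrane protein of corticospinal neurons, went from 48.6 to 58.1 CPM in the controls to 102 to 104 in the cKO mice, a log2 fold change of 0.91 (adjusted p = 6.09e-05 in limma). Pou3f1 (Scip), a POU factor of subcerebral neurons, rose by 0.83, and Diaph3, a formin, by 0.49. Cdh13, Cdh22 and S100a10, the most abundant of those not called, had log2 fold changes of 0.13, 0.15 and -0.12.

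Slco2a1, a prostaglandin transporter, was named after its values were seen, since 1 mouse set its fold change. It was at 29.7 CPM in control replicate 3, at 3.44 and 3.93 in the other controls and at 2.07 to 2.72 in the cKO mice, and was not called. Pcp4, a calmodulin-binding peptide gene of layer 5, was listed at 0 in all 6 mice and was not tested. Such values do not tell absent RNA from reads that were not counted.

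The layer 5 genes of intratelencephalic and near-projecting neurons were split. Of 9, Deptor, an inhibitor of mTOR, and Trhr, a thyrotropin-releasing hormone receptor, rose by 1.05 and 0.99 on the log2 scale. Hsd11b1, a glucocorticoid-activating enzyme, and Slc17a8, a vesicular glutamate transporter, fell, at -0.60 and -0.52. Sulf2, Tshz2 and Parm1 were not called, at -0.01, -0.49 and -0.22.

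Among 7 corticothalamic genes of layer 6, Sulf1, a sulfatase that edits heparan sulfate, was the 1 that rose, from 13.6, 15.4 and 14.7 CPM in the controls to 53.3, 38.0 and 53.8 in the cKO mice. Its log2 fold change was 1.71 ± 0.13 (SE; limma, adjusted p = 3.45e-05). Syt6, a synaptotagmin, and Rprm, a cell cycle inhibitor, had log2 fold changes of 0.31 and 0.33 and were not called. Garnl3 had a log2 fold change of -0.23, with an adjusted p of 0.0351 in limma but within the fold limit. Hs3st4 was not analysed here. Of 6 genes of layer 6b and the subplate, Nxph4, a neurexophilin, rose, from 2.39 to 3.64 CPM in the controls to 5.17 to 8.25 in the cKO mice, a log2 fold change of 1.24 (adjusted p = 0.00373 in limma). Ctgf, Nr4a2 and Tmem163 were not called, at 0.74, 0.03 and -0.45.

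Of the 17 tested relatives, ligand and partners of the 10 genes, 7 rose and 1 fell, and besides those given above Zeb2, a zinc-finger repressor, rose by 0.37 on the log2 scale. Fezf1, the paralogue of Fezf2, was at 0 to 0.06 CPM and was not tested.

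The upper-layer and callosal genes were the nearest set for comparison. Of 14, 8 fell and 3 rose, with a median log2 fold change of -0.57. Rasgrf2, Rorb, Cux2 and Unc5d fell, with log2 fold changes of -1.96, -1.74, -1.74 and -1.68, all further than any of the 10 deep-layer genes. Cux1, Kitl, Plxnd1 and Lhx2 fell, with log2 fold changes from -0.84 to -0.46. Pou3f3 and Mdga1 were among those that rose, by 0.38 and 2.75 on the log2 scale. Lmo4, Pou3f2 and Inhba were not called. Among general genes of cortical excitatory neurons, Neurod6 and Neurod2 rose with Tbr1, by 1.34 and 0.68, and Camk2a and Nrgn were not called. Emx1, also in this list, fell by 1.79. Only the cKO mice carry the Cre insertion in this gene, and its effect on the Emx1 level was not tested.

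**Figure D3:**
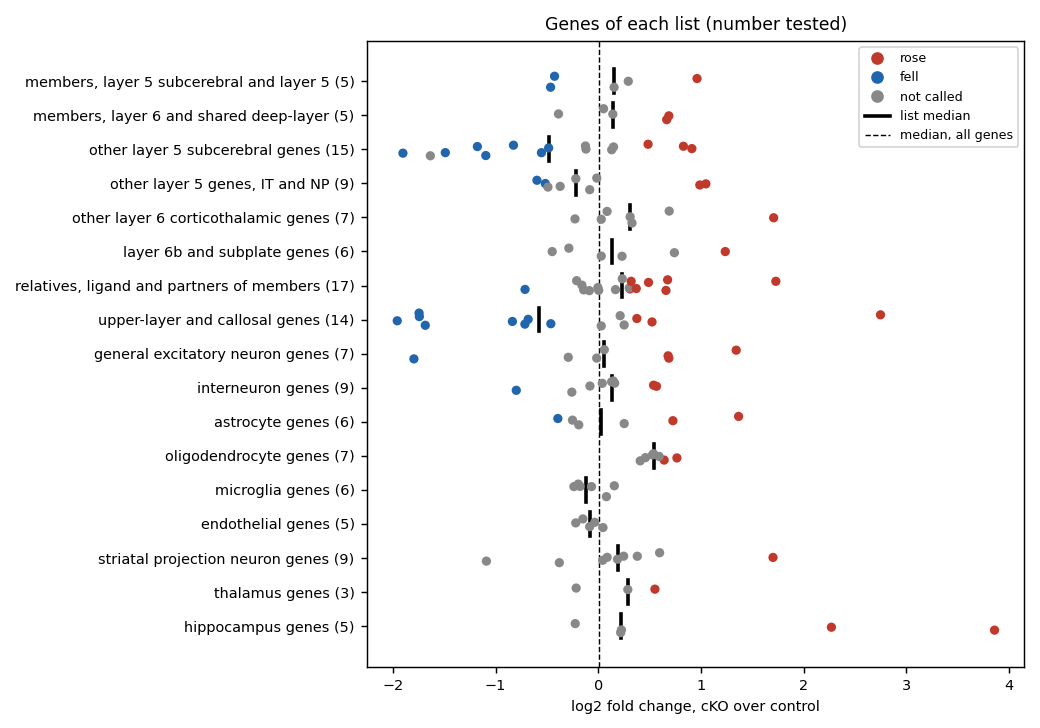
Log2 fold change of cKO over control for every tested gene of each list (dots, 1 gene each; red rose, blue fell, grey not called), with the list median as a bar and the median of all genes, 0.01, as a dashed line. The other layer 5 subcerebral genes and the upper-layer genes lie mostly to the left, with medians of -0.48 and -0.57, and the 10 members on both sides.

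Other tissue and cell types in the dissected cortex were measured by their markers. Several of the 10 genes, Bcl11b and Foxp2 among them, are also expressed in the striatum, which lies below the deep layers. The 9 striatal projection neuron genes summed to 274, 324 and 251 CPM in the controls and to 487, 205 and 387 in the cKO mice. cKO replicate 2 was the lowest of all 6 mice in this sum. It was the lowest cKO mouse in 36.4% of all genes tested and 9 of the 14 upper-layer and callosal genes. Among the 10 genes it was so in 6. Bcl11b, Foxp2, Crym and Tle4 of these were not called, and Fezf2 and Ntsr1 were. In Sox5, also not called, cKO replicate 3 was the lowest. Adora2a, a marker of indirect-pathway striatal neurons named after its values were seen, was at 1.35 CPM in cKO replicate 2. It was at 5.14 to 20.3 CPM in the other mice. Of the 9 genes, 1 was called, Drd1, a dopamine receptor also found in layer 6, which rose by 1.70 on the log2 scale. Ppp1r1b and Pde10a were not called. The part of striatal tissue in the values of the 10 genes was not tested.

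**Figure D4:**
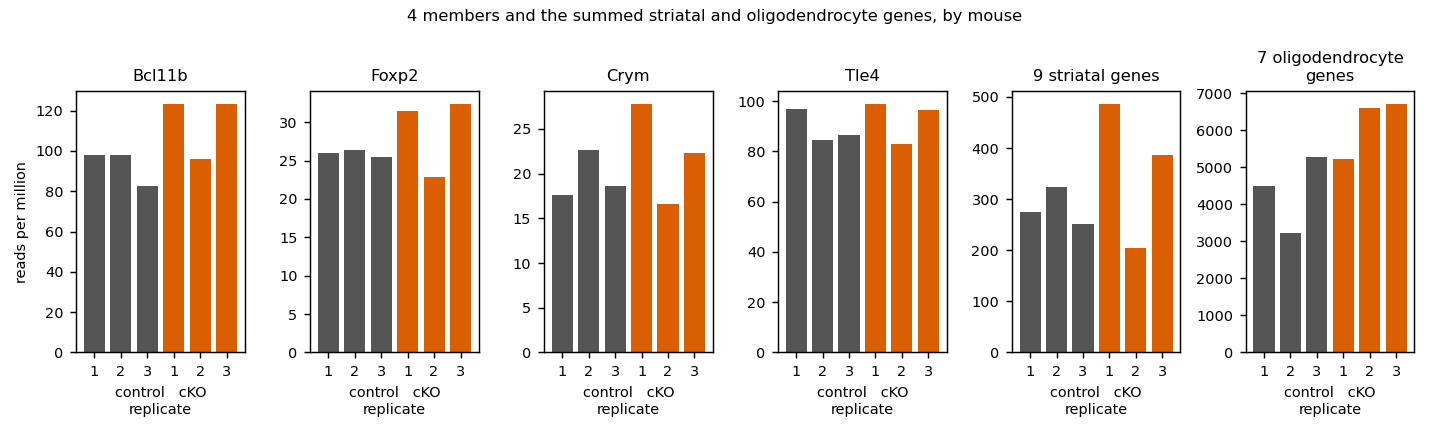
CPM in each mouse (grey, control replicates 1 to 3; orange, cKO replicates 1 to 3; bars start at 0) for 4 of the 5 genes that were not called and for the sums of 9 striatal and 7 oligodendrocyte genes. Sox5, not called either and lowest in cKO replicate 3, is not drawn. The orange bar of replicate 2 is the lowest of the 3 cKO bars in the first 5 panels and not in the last.

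The 7 oligodendrocyte genes summed to 4497, 3214 and 5277 CPM in the controls and to 5220, 6609 and 6709 in the cKO mice (exact permutation test, two-sided, p = 0.2, where 3 against 3 mice cannot go below 0.1). Mobp and Cldn11, myelin genes, rose by 0.64 and 0.77 on the log2 scale, and Mbp and Cnp were not called. Of 6 astrocyte genes, Gfap and Aqp4 rose by 1.37 and 0.73 and Aldh1l1 fell by 0.39, while the sum was 3984 to 4259 in the controls and 3502 to 3773 in the cKO mice. Of 5 hippocampal genes, Spink8 and Fibcd1, genes of CA1 neurons, rose by 3.86 and 2.27. Prox1, Lct and Dsp were not called, at 0.23, 0.22 and -0.22. Spink8 was at 0.14 to 0.29 CPM in the controls and 3.67 to 5.71 in the cKO mice. It passed the filter on low values only through the cKO mice, and its fold change rests on control levels near 0. The sum of the 5 was 15.965 to 20.4 in the controls and 42.2 to 61.1 in the cKO mice, and Fibcd1 alone went from 5.70 to 8.20 up to 29.0 to 42.5. Of 3 thalamic genes tested, Prkcd rose by 0.55, and Gbx2, a thalamic factor, was at or near 0 in all 6 mice. Whether myelin, hippocampal tissue or the depth of the dissection had a part in the rises of Ldb2, Tbr1 and Ntsr1 was not tested. Of 9 interneuron genes, Sst and Npy rose by 0.57 and 0.54 and Pvalb fell by 0.80, and of 6 microglia and 5 endothelial genes none was called in limma, with 3 and 0 at an unadjusted p under 0.05.

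**Figure D5:**
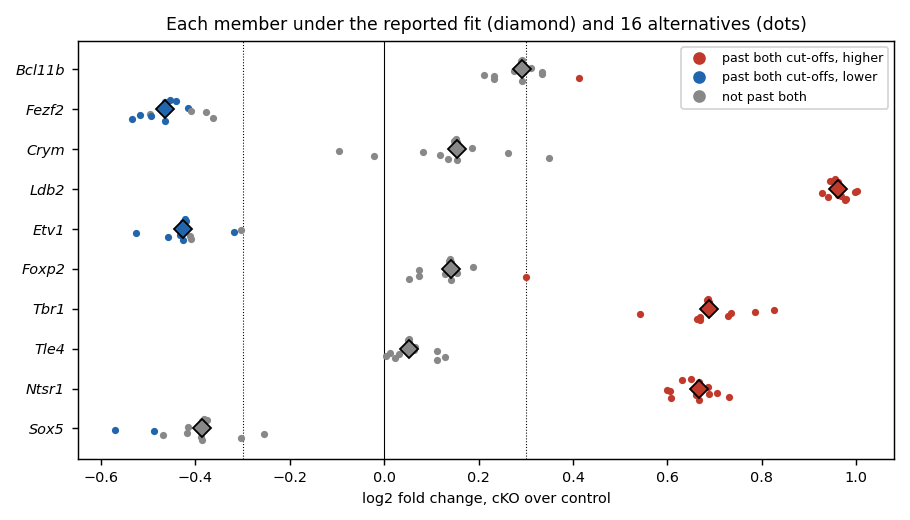
Log2 fold change of cKO over control of each gene in the reported fit (diamond) and in 16 alternative fits of the recovered counts (dots), coloured where past both thresholds. Ldb2, Tbr1 and Ntsr1 are coloured throughout, Fezf2 in 11 and Etv1 in 12 of the 16, and Crym crosses 0.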

How the data were processed

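The authors sequenced polyA RNA with directional libraries, aligned reads to mm9 with TopHat and Bowtie, counted them with HTSeq on the UCSC mm9 annotation and converted the counts to RPKM. The strand setting and tool versions are not given in the sources used here. The deposited values are these RPKM, 1 table per mouse. In each table the lengths behind the RPKM repeat down the rows in the text order of the Entrez identifiers, with a period of 65 to 296 rows that differs between mice, so that a gene is divided by a length that is not its own. The deposited values of the 10 genes therefore differed between mice by 9.35 to 305 times, and the recovered CPM by 1.19 to 2.11 times. Whole counts were recovered by placing each row in its cycle, for 99.86 to 99.88% of values above 0, and made up 99.97 to 99.98% of each library's total of 19326365 to 54128334 reads. Of the values above 0, 93.13 to 98.9% had 1 possible count, and the others were set by their place in the cycle. On 3 simulated tables of 21759 rows, all totals were found and 100% of the counts given were right. These tables were made from the recovered counts and made-up lengths that repeat in the same identifier order. They therefore do not test whether the deposited tables follow this scheme.

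Counts were divided by the library total, and log2(CPM + 0.1) was compared between 3 control and 3 cKO mice with limma 3.58.1 in R 4.3.3 (lmFit, eBayes with a variance trend, two-sided, Benjamini-Hochberg adjustment over all 14618 genes). A gene entered with CPM above 0.5 in every mouse of 1 genotype or more and a recovered count in at least 2 mice of each genotype. On simulated counts for this comparison (14528 genes), 72.2% of genes changed by 0.5 and 98% of those changed by 1 on the log2 scale were called. Fold changes on this scale understate those of genes with few reads. Tables were handled with Python 3.11.15, pandas 2.3.3, numpy 2.4.6 and scipy 1.17.1, and plots drawn with matplotlib 3.10.9. Gene positions and exon lengths came from Gencode annotation of mm9.

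The 10 genes and the lists were chosen with earlier results of these data known. Named were all 10, the Mef2 genes, list genes that were called and, per list, up to 3 of the most abundant not called; Eomes, Sox4, Sox6, Tle2, Tle3, Fezf1, Slco2a1, Adora2a and the untested Pcp4 and Gbx2 were named after their values were seen. The older symbols Drd1a and Diap3 were matched to Drd1 and Diaph3. Some list genes are counted but not reported here by name. Mef2a was not called, at a log2 fold change of 0.16 (adjusted p = 0.0957), and Mef2d rose by 0.35 (adjusted p = 0.00183). The mice are separate animals, and samples were grouped by the labels. Alternatives were another pseudocount, filter, scaling, variance model or threshold, a replicate block, the 12-week mice, leaving out each mouse, counts with 1 possible length, and the deposited RPKM.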

Additional observations from a re-analysis of the deposited data

How the results depend on the processing

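Ldb2, Tbr1 and Ntsr1 were called in all 16 alternatives fitted to the recovered counts, with log2 fold changes of 0.93 to 1.00, 0.54 to 0.83 and 0.60 to 0.73. Fezf2 (-0.54 to -0.36) was called in 11 and Etv1 (-0.53 to -0.30) in 12. With only counts of 1 possible length, 5 of the 10 genes passed. The log2 fold changes of Tbr1, Ldb2 and Tle4 were then 0.67, 0.98 and 0.11. Those of Tbr1 and Ldb2 had adjusted p-values of 0.011 and 0.000349 in limma. Without the variance trend, 3 of the 10 genes and 1784 of all genes passed, against 5 and 1995, since Fezf2 and Etv1 then had adjusted p-values of 0.0525 and 0.0556 in limma. In the 12-week mice alone, 10 of the other deep-layer genes passed, against 16, and 1468 of all genes, against 1995. There, Fezf2 and Etv1 did not pass, Sox5 did at -0.57, and Crym was at -0.095. At an absolute log2 fold change above 1, 0 of the 10 genes and 471 of all genes passed.

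Fits that each dropped 1 mouse called 4 to 6 of the 10 genes, 12 to 18 other deep-layer genes and 1653 to 1865 of all genes, and gave a median log2 fold change of the 10 genes from 0.04 (without cKO replicate 1) to 0.33 (without cKO replicate 2). Crym ranged from -0.022 (without cKO replicate 1) to 0.35. Without cKO replicate 2, Bcl11b and Foxp2 passed as well and Fezf2 did not.

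On the deposited RPKM, whose lengths differ between mice, Fezf2 and Ntsr1 did not pass the filter, and 0 of the 8 remaining members, 0 of the 16 other deep-layer genes tested and 14 of the 7974 genes tested passed in limma (1 and 3 of the first groups had an unadjusted p under 0.05). The median of those 8 was -0.36, and Foxp2 and Tle4 were at -3.82 and -2.78.

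Same-numbered mice of both genotypes did not deviate together (correlations of -0.18, -0.11 and -0.08). Deviations from means of 3 mice cannot show whether the mice were paired by litter or batch. By age the numbers do match, since replicate 1 was the 14-week mouse in both genotypes. With the replicate block, 5 of the 10 genes, 13 other deep-layer genes and 1692 of all genes passed, and no call among the 10 genes changed. Among the 10 genes, the lowest counts were those of Fezf2 and Crym in cKO replicate 2, with 251 and 320 reads.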

Other observations

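Ratios between the 10 genes within a mouse do not depend on the library total. These pairs were chosen after the values were seen, so the ratios are given without a test. The Tbr1 to Fezf2 ratio of reads was 9.44, 10.4 and 8.20 in the controls and 18.7, 24.5 and 19.4 in the cKO mice. The Ldb2 to Etv1 ratio was 0.46, 0.56 and 0.51 in the controls and 1.35, 1.31 and 1.33 in the cKO mice. The Tle4 to Fezf2 ratio, between a gene that was not called and one that fell, was 4.16, 4.27 and 4.52 in the controls and 6.32, 6.39 and 5.83 in the cKO mice. In cKO replicate 2, where both Tle4 and Fezf2 had their lowest cKO value, this ratio was the highest of the 6 mice.

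cKO replicate 2 was the lowest cKO mouse for 36.4% of all genes tested. The same held for 9 of the 14 upper-layer and callosal genes and 7 of the 15 other layer 5 subcerebral genes. Among the 17 relatives, ligand and partners and the 5 hippocampal genes, this mouse was the lowest for 12 and 4. It was so for 6 of the 10 genes, for 13 of the 18 genes of layers 6 and 6b or shared by the deep layers, for all 6 genes of layer 6b and the subplate and for all 9 striatal genes, but for 0 of the 7 oligodendrocyte genes.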
